A study of Mus musculus with 28 samples.

Results

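The cytochrome P450 genes of the mouse were placed in H3K9me2 domains of embryonic stem cells (mESCs) and 2-cell-like cells (2CLCs). Members were all protein-coding genes whose symbol starts with Cyp, a family number and a lower-case letter, which gave 99 of 21755 protein-coding genes on chromosomes 1 to 19 and X. A cluster was a run of at least 2 P450 genes in which no gap from the end of a gene to the start of the next exceeded 1 Mb. This put 76 genes in 10 clusters and left 23 single genes. Clusters differed sharply in size: 7 held 8 to 14 genes and together 69 of them, and 3 held 2 or 3 genes. The wider ones are called arrays here, a split made after the sizes were seen.

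P450s are heme enzymes that use electrons from a reductase partner to oxidise small molecules. The single-copy and small families mostly carry out fixed steps in making or breaking down steroid hormones, bile acids, vitamin D and retinoic acid. Families 2, 3 and 4 hold many recent tandem duplicates, and their enzymes act in liver, lung, kidney and gut on fatty acids, drugs and toxins. H3K9me2 marks repressed chromatin and lies in long stretches of the genome, and EHMT2 is a main enzyme that writes it.

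The cells were BL6/129 hybrid mESCs grown in serum and LIF in which both copies of the endogenous Ehmt2 end in a degron, with HA tags and an mCherry reporter, so the DMSO controls carry the modified allele too. The degrader dTAG-13 removes the tagged protein. Sorted cells came from a single clone that also held a MERVL-GFP reporter, and GFP-negative cells were taken as mESCs and GFP-positive cells as 2CLCs after 72 h in DMSO or dTAG-13. Native chromatin immunoprecipitation with matching input gave 28 libraries, with 3 of each kind for every sorted condition and 2 of each kind for bulk EHMT2-dTAG cells after 24 h in DMSO. The labels say that TTNBP, an agonist of retinoic acid receptors, was present for 2 of the replicates without saying which, while the study's methods name it for the sorted cells with no such limit. Sorted conditions may thus mix libraries with and without it, and its part in the placement of the retinoic acid genes below was not tested. The values analysed were lists of domain positions, a single list for each of the 4 sorted conditions. A further list, the unnamed set, gives neither cell state nor treatment, belongs to no group, and has its values given side by side only. No list has a replicate and the depth behind it is unknown, so no difference between lists could be set against the spread between cultures. A domain shows where the ratio of immunoprecipitated to input coverage was high along the genome, not how much mark was there. The cell states and the loss of EHMT2 could not be checked in these files, which hold no expression values.

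The promoters of 6 P450 genes are shown as examples from arrays, whose members have few CG pairs, and from outside arrays. Each runs 5′ to 3′ on the gene's strand from 250 bases before to 50 bases after the RefSeq start in GRCm38.p6, with capitals on every CG and on TATAAA or its reverse complement. Cyp3a41a at chr5:145720087-145720386 and Cyp3a41b at chr5:145584681-145584980, both on the minus strand, are neighbouring copies in the Cyp3a array, whose drug-oxidising enzymes are close to human CYP3A4. They lay inside domains in all 4 sorted sets, and 292 of their 300 promoter positions hold the same base.
Cyp3a41a: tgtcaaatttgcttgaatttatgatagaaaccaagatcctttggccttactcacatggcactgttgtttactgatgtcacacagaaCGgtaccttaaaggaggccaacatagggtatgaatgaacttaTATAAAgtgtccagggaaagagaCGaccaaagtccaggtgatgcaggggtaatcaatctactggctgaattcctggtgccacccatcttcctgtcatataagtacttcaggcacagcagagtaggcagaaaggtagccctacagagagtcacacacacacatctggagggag
Cyp3a41b: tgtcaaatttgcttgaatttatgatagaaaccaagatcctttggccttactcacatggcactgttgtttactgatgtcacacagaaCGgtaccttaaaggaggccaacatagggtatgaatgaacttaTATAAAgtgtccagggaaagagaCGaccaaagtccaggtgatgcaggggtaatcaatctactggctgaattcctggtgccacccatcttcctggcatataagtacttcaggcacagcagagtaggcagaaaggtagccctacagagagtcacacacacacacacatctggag
Cyp2d10 at chr15:82407145-82407444 on the minus strand, a member of the drug-oxidising Cyp2d array, was inside domains in dTAG and outside in DMSO in both cell states. Cyp2b10 at chr7:25897408-25897707 on the plus strand, the phenobarbital-induced P450 of mouse liver, was inside in both 2CLC sets and outside in both mESC sets.
Cyp2d10: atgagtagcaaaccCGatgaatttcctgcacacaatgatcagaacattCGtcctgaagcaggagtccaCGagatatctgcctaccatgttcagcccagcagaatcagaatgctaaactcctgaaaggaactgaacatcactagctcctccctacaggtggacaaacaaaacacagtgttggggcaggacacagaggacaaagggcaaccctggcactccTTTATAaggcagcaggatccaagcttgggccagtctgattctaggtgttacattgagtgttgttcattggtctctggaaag
Cyp2b10: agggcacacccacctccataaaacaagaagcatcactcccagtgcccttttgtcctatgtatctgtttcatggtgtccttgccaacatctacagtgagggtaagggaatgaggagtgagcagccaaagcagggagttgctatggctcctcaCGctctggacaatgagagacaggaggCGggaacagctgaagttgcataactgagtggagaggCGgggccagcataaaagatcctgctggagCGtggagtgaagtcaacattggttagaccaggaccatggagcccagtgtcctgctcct
Cyp2r1 at chr7:114562923-114563222 on the minus strand makes 25-hydroxyvitamin D and is a single gene that was inside in all 4 sorted sets. Cyp26a1 at chr19:37697558-37697857 on the plus strand breaks down retinoic acid and was inside in none.
Cyp2r1: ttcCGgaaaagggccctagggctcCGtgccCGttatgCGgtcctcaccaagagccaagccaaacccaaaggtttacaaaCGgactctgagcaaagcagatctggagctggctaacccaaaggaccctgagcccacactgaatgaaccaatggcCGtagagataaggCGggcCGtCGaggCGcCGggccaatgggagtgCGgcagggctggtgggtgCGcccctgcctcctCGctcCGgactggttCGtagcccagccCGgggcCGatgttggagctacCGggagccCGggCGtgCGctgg
Cyp26a1: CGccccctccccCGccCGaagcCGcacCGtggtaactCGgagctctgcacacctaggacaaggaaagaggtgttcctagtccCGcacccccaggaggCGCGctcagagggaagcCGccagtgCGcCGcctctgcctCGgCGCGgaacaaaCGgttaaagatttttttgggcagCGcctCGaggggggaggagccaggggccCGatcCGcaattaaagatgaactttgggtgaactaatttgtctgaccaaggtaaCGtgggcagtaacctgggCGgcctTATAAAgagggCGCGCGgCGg
The number of CG pairs was 2 in each Cyp3a41 promoter, 3 in Cyp2d10 and 4 in Cyp2b10, against 22 in Cyp2r1 and 26 in Cyp26a1. The median over the 32851 promoters of the RefSeq table was 7. Among these 6 examples, CG-poor promoters belonged to genes that stayed inside and genes that moved, and the CG-rich ones to a gene inside and a gene outside.

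Most clustered P450 genes started inside a domain and most single ones did not. In mESC DMSO, 57 of 76 clustered starts (75.0%) and 4 of 23 single starts (17.4%) were inside, where 22.3% of all protein-coding starts were. In mESC dTAG the counts were 56 clustered (73.7%) and 6 single (26.1%), beside 23.6% of all genes. In 2CLC DMSO they were 56 clustered (73.7%) and 4 single (17.4%), beside 23.2%. In 2CLC dTAG they were 57 clustered (75.0%) and 7 single (30.4%), beside 26.5%. The clustered share thus differed by no more than a single gene among the 4 sets, while the single genes stayed near the share of all genes. The 95% Wilson intervals in mESC DMSO were 64.2% to 83.4% for clustered and 6.98% to 37.1% for single genes. They cover counting over genes only, and genes of a cluster share domains and are not independent. In the unnamed set 57 clustered and 7 single starts were inside, and 30.0% of all starts.

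**Figure D1:**
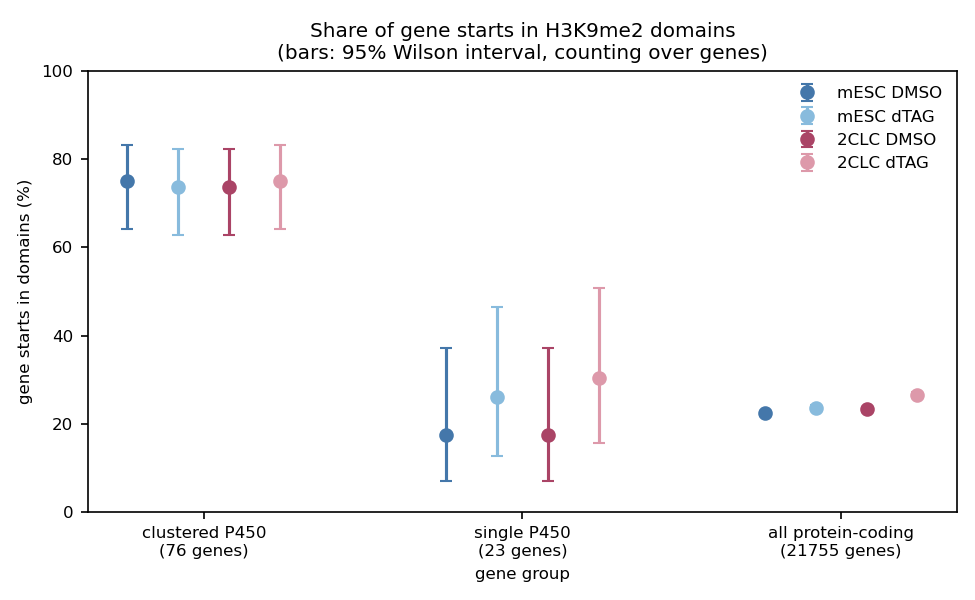
Share of gene starts inside H3K9me2 domains (y axis, %) for clustered P450, single P450 and all protein-coding genes (x axis), with 1 point for each sorted domain set and 95% Wilson intervals that cover counting over genes only. The 4 clustered points lie between 73.7% and 75.0%, the single ones between 17.4% and 30.4%, and all genes between 22.3% and 26.5%.

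Most of the genes behind these counts were the same in every set. Of the 99 P450 genes, 54 were inside in all 4 sorted sets, 51 of them clustered and 3 single, where 15.1% of all protein-coding genes were. A further 30 were inside in none, 15 clustered and 15 single, beside 65.8% of all genes. The remaining 15 changed between sets. The clustered genes inside were mostly those of the arrays, where 50 of 69 genes were inside in all 4 sets. In the 3 small clusters 1 of 7 was, Cyp11b2.

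**Figure D2:**
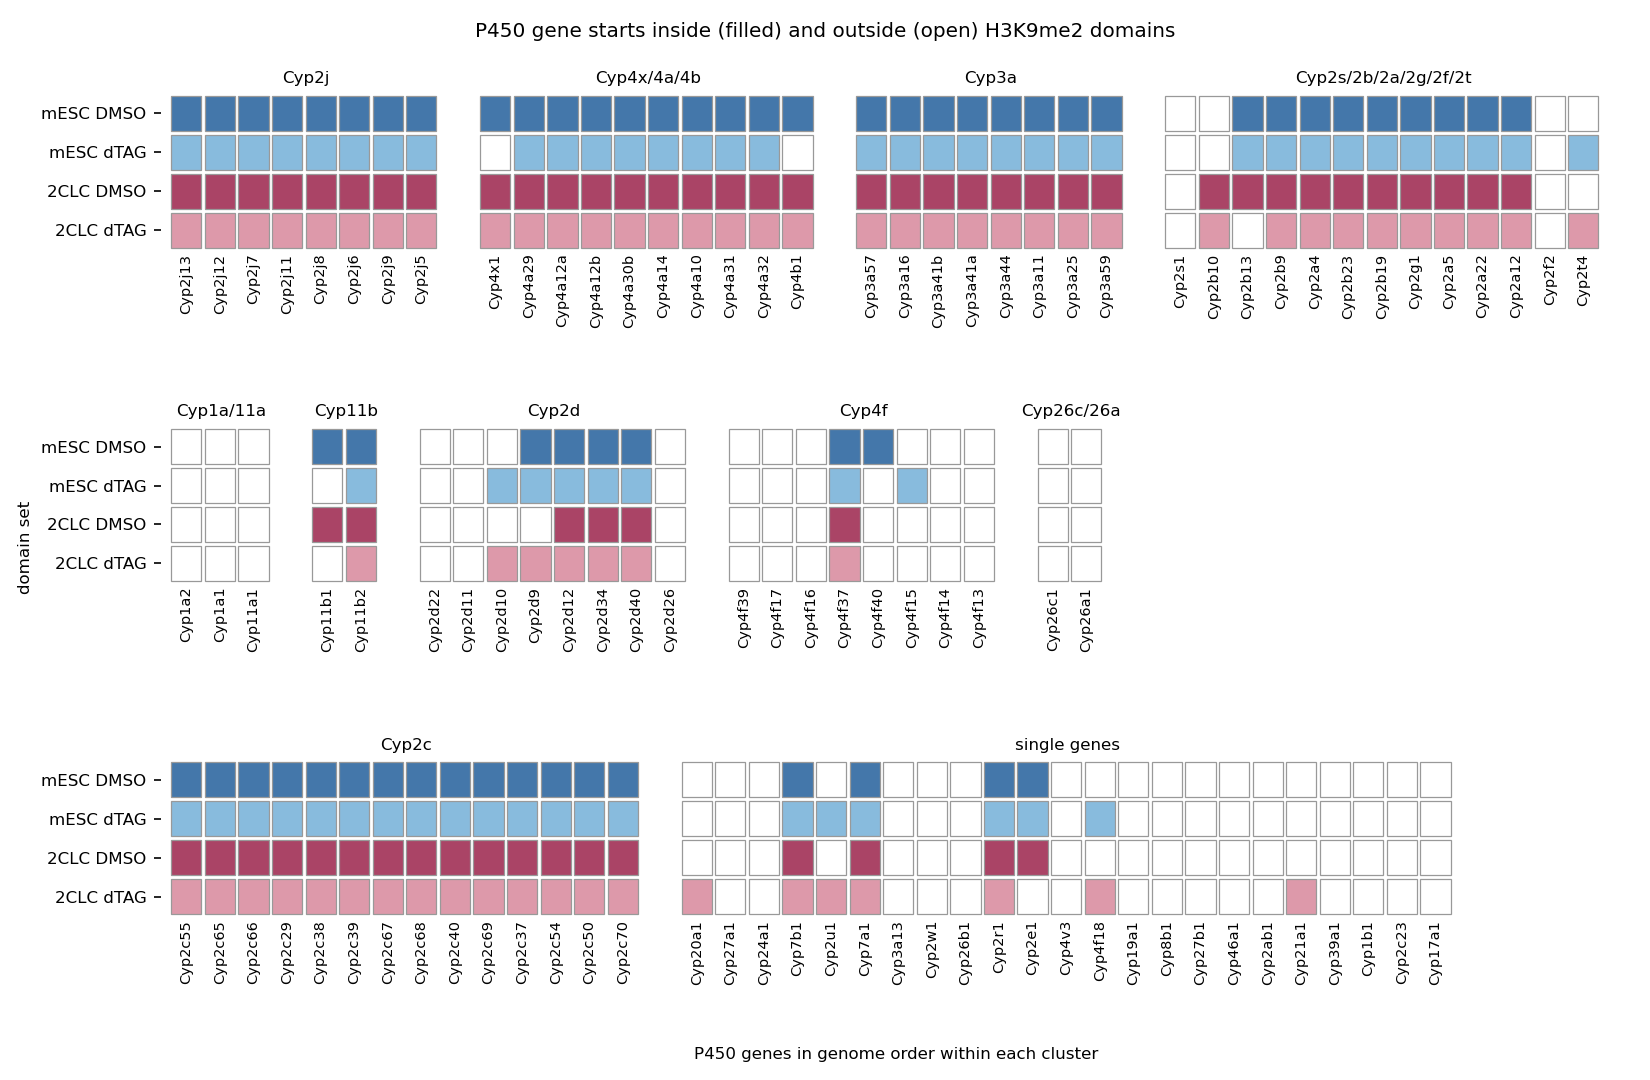
Each square is 1 P450 gene (columns, in genome order within its cluster) in 1 domain set (rows), filled where the gene start lies inside a domain and open where it lies outside. The Cyp2j, Cyp3a and Cyp2c arrays are filled in every set, the Cyp1a/11a and Cyp26c/26a clusters are open in every set, and the Cyp2d and Cyp4f arrays are mixed.

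The Cyp2c, Cyp3a and Cyp2j arrays, which encode liver, gut and heart enzymes for drugs, steroids and arachidonic acid, were inside at every start in all 4 sets. The Cyp2c array of 14 genes at chr19:39007019-40187333, from Cyp2c55 to Cyp2c70, was covered to at least 99.2% in every set. Its widest domain measured 1010 kb in DMSO and 1255 kb in dTAG in mESCs, and 1240 and 1170 kb in 2CLCs. The 8 Cyp3a genes at chr5:145345279-146113287, from Cyp3a57 to Cyp3a59, lay in a single domain in each set, which measured 935 kb in DMSO and 1025 kb in dTAG in mESCs, and 915 and 975 kb in 2CLCs. These domains ran past both ends of the array, whose span is 768 kb. The 8 Cyp2j genes at chr4:96027534-96664154, from Cyp2j13 to Cyp2j5, lay in a single domain of 1545 kb in mESC DMSO. In the other 3 sets the array lay in 2 domains, and at least 98.9% of it was covered. The gap was within the Cyp2j6 gene body in both dTAG sets and between Cyp2j6 and Cyp2j9 in 2CLC DMSO.

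The Cyp4x/4a/4b array at chr4:115106323-115647723 holds 8 Cyp4a genes, which encode fatty acid omega-hydroxylases under the control of PPAR alpha, with Cyp4x1 at one end and the lung enzyme Cyp4b1 at the other. All 8 Cyp4a starts were inside in all 4 sets. The array was a single domain of 625 kb in both DMSO sets, a domain of 505 kb in mESC dTAG, and 2 pieces of which the wider measured 400 kb in 2CLC dTAG. In mESC dTAG the domain ended short of Cyp4x1, whose start was 5.18 kb outside it. At the other end it covered 85.8% of the Cyp4b1 gene body and ended short of the Cyp4b1 start. That start was 1.74 kb from the nearest domain, which was a different one. With domains joined over gaps of 10 kb or less, Cyp4b1 was inside in all 4 sets.

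The Cyp2s/2b/2a/2g/2f/2t array at chr7:25802475-27158668 is the widest, with 13 genes from Cyp2s1 to Cyp2t4 over 1356 kb. Between 85.2% and 90.3% of it was covered in the sorted sets, in 2 pieces in mESC DMSO, 3 in 2CLC DMSO and 7 in each dTAG set. The 4 Cyp2a genes, among them the nicotine and coumarin oxidase Cyp2a5, and Cyp2g1, an olfactory P450, were inside in all 4 sets. Cyp2s1, an epithelial P450 at one end, and Cyp2f2, the naphthalene-oxidising enzyme of airway club cells near the other, were inside in none. The Cyp2f2 start was only 0.284 kb from a domain in both 2CLC sets, and the Cyp2s1 start 2.72 kb in 2CLC dTAG. In 2CLC dTAG Cyp2g1 was inside by only 0.734 kb, in a domain of 25 kb. The 5 genes of other families within the array, the vomeronasal receptors Vmn1r184 and Vmn1r185 and the oocyte genes Nlrp9c, Nlrp4a and Nlrp9a, were inside in all sorted sets except for Vmn1r184 in mESC dTAG.

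The Cyp2d and Cyp4f arrays were covered in part. Of the 8 Cyp2d genes at chr15:82370527-82794294, 4 were inside in DMSO and 5 in dTAG in mESCs, and 3 and 5 in 2CLCs. Cyp2d12, Cyp2d34 and Cyp2d40, the last of them next to outermost, were inside in all 4. Cyp2d22 and Cyp2d11 at one end and Cyp2d26 at the other were inside in none. Cyp2d26 started 0.668 to 5.67 kb from a domain in every sorted set. The Cyp4f array at chr17:32452723-32947402, whose enzymes oxidise leukotrienes and fatty acids, was the least covered, at 25.3% in DMSO and 40.4% in dTAG in mESCs, and 16.2% and 31.3% in 2CLCs. Cyp4f37 was its only gene inside in all 4 sets, and Cyp4f39, Cyp4f17, Cyp4f16, Cyp4f14 and Cyp4f13 were inside in none. The 4 zinc finger genes Zfp871, Zfp811, Zfp799 and Zfp870 within its span were outside, except for Zfp871 in mESC dTAG.

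**Figure D3:**
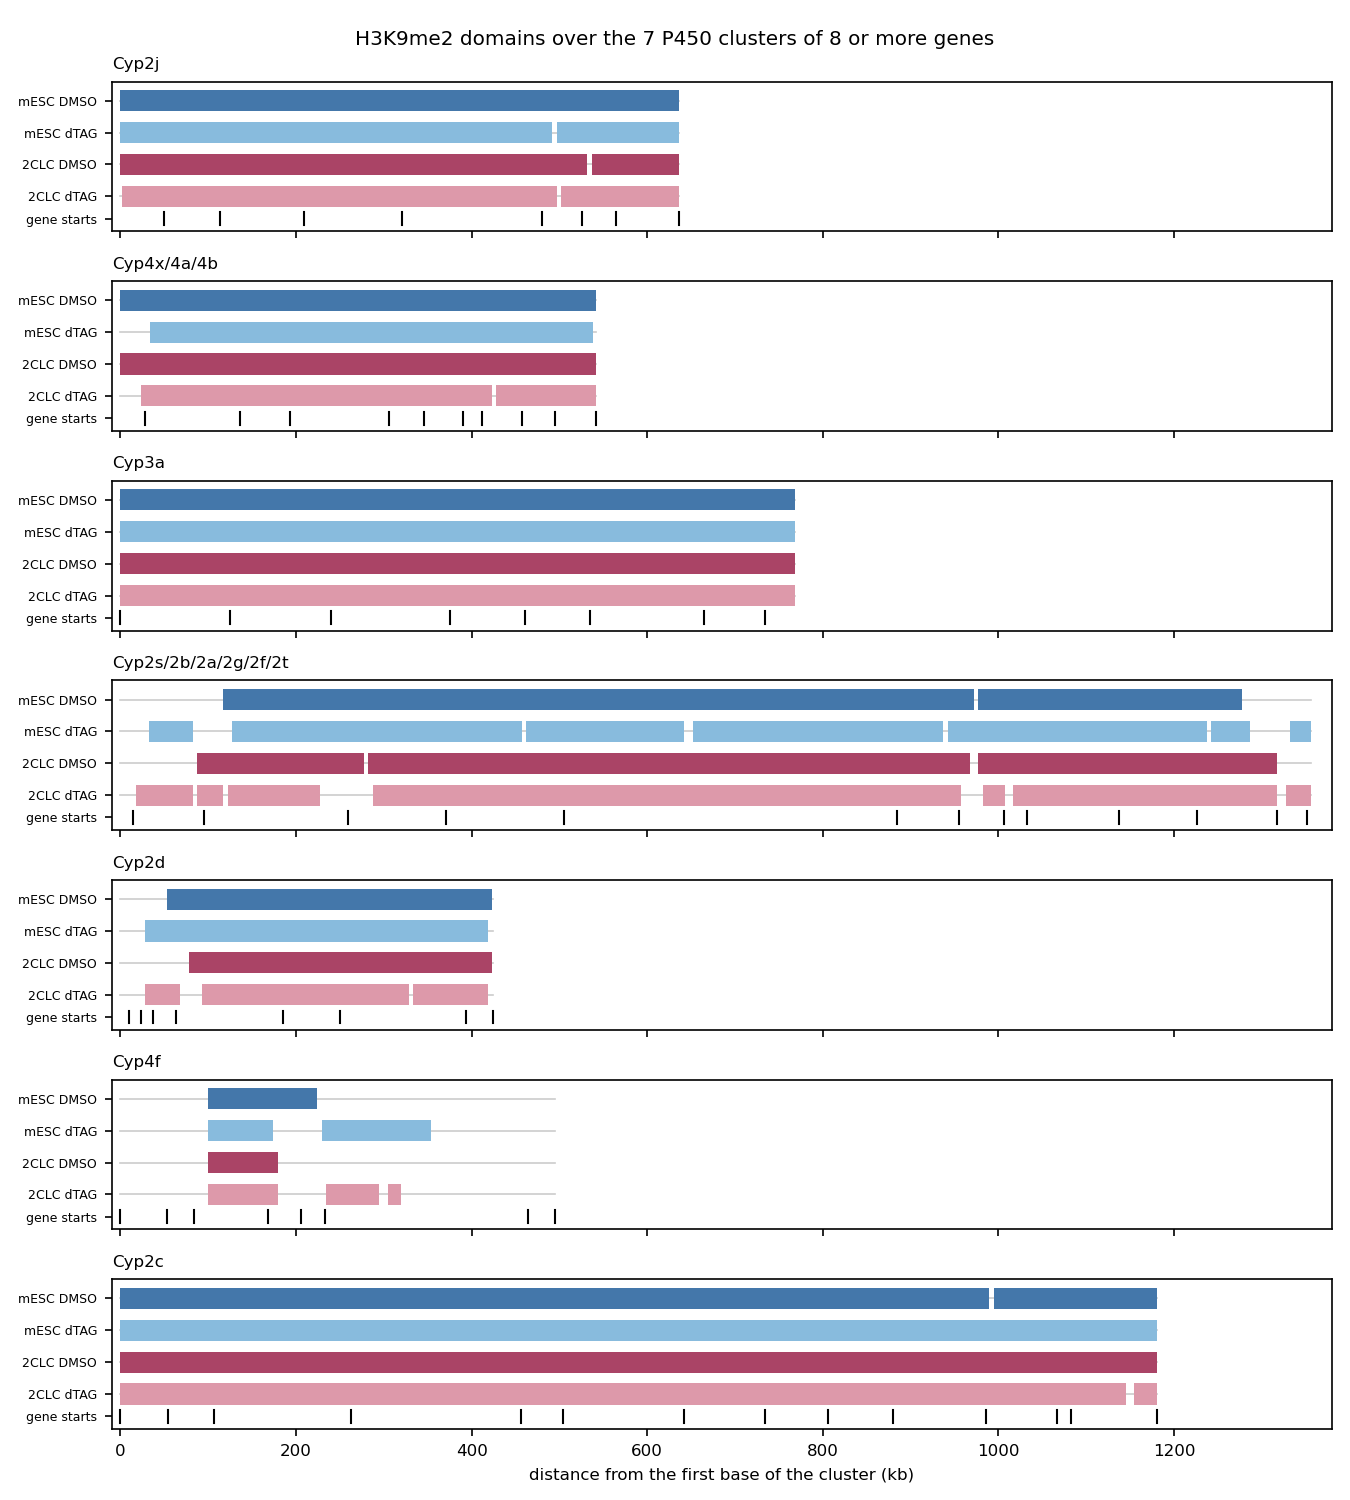
Domains (coloured bars) over the 7 P450 arrays in the 4 sorted sets (rows of each panel), with black ticks at the gene starts, against the distance from the first base of the array (x axis, kb). Cyp3a is covered without a break in every set, the Cyp2s/2b/2a/2g/2f/2t array is in 7 pieces in each dTAG set, and Cyp4f is covered in its middle only.

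Of the 3 small clusters, 2 were outside domains altogether and 1 was covered in DMSO. Cyp1a1 and Cyp1a2, the aryl hydrocarbon receptor targets that oxidise polycyclic compounds, and Cyp11a1, which cuts the cholesterol side chain to start steroid synthesis, lie at chr9:57676937-58027023 and had no domain over their span in any set, and neither had the 5 other genes there. Their starts were 187 to 2030 kb from the nearest domain of the sorted sets. Cyp26a1 and Cyp26c1, the retinoic acid hydroxylases at chr19:37685581-37701536, were also uncovered, and the nearest domain to Cyp26a1 was 1289 kb away in DMSO and 39.0 kb in dTAG in mESCs, and 9.01 and 34.0 kb away in 2CLCs. The other retinoic acid hydroxylase, the single gene Cyp26b1, was outside as well. The adrenal pair Cyp11b1 and Cyp11b2 at chr15:74834125-74856318, which make corticosterone and aldosterone, lay in a domain of 80 kb in mESC DMSO and 90 kb in 2CLC DMSO. In both dTAG sets Cyp11b2 stayed in a domain of 30 kb and Cyp11b1 started 1.99 kb outside it.

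Within the arrays, starts that lay inside in every set were mostly away from the ends. Of the 41 genes with at least 2 P450 genes on either side, 35 were inside in all 4 sorted sets and 1, Cyp4f16, in none. Of the 28 genes that were the outermost or next to outermost, 15 were inside in all 4 and 9 in none. All 9 belonged to the Cyp2s/2b/2a/2g/2f/2t, Cyp2d and Cyp4f arrays. In the Cyp2j, Cyp3a and Cyp2c arrays every such gene was inside in all 4. The arrays together span 5401 kb, of which 88.3% was in domains in DMSO and 90.4% in dTAG in mESCs, and 88.2% and 89.2% in 2CLCs. The domain pieces over them numbered 9 in DMSO and 15 in dTAG in mESCs, and 10 and 20 in 2CLCs. The whole lists also held more domains in dTAG, with 4323 and 7312 in mESCs and 4246 and 8820 in 2CLCs.

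Non-coding P450 copies inside the cluster spans were mostly in domains, and the shares inside of genes beside arrays and beside single P450 genes lay below the 22.3% to 26.5% of all protein-coding genes. Of the 25 P450 pseudogenes and other non-coding P450 genes within the spans, 25 started in a domain in each DMSO set and 24 in each dTAG set, the exceptions being Cyp4x1os in mESCs and Cyp2d32-ps in 2CLCs. Of the 276 other protein-coding genes within 1 Mb of an array, 17 (6.16%) were inside in DMSO and 32 (11.6%) in dTAG in mESCs, and 11 (3.99%) and 35 (12.7%) in 2CLCs. The array genes themselves had 55 of 69 starts inside in both mESC sets, and 54 in DMSO and 56 in dTAG in 2CLCs. Around single P450 genes, 758 other genes lay within 1 Mb, and 54 of them (7.12%) were inside in DMSO and 84 (11.1%) in dTAG in mESCs, and 57 (7.52%) and 91 (12.0%) in 2CLCs. None of these differences was tested.

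Of the 23 single P450 genes, 15 (65.2%) were inside in no sorted set, near the 65.8% of all protein-coding genes. For steroid hormones these were Cyp17a1, which makes androgen precursors, and Cyp19a1, the aromatase. For bile acids and cholesterol they were Cyp27a1, Cyp8b1, Cyp39a1 and the brain cholesterol hydroxylase Cyp46a1, and for vitamin D the kidney 1-alpha-hydroxylase Cyp27b1 and the breakdown enzyme Cyp24a1. Cyp1b1, the third aryl hydrocarbon receptor target, was outside too. The 3 single genes inside in all 4 sets were Cyp7a1, the rate-limiting enzyme of the classical bile acid pathway, Cyp7b1, the oxysterol hydroxylase of the alternative pathway, and Cyp2r1. The Cyp7a1 start lay in domains of 70 kb in DMSO and 340 kb in dTAG in mESCs, and of 180 and 190 kb in 2CLCs. The Cyp7b1 start lay in domains of 370 and 180 kb in mESCs and of 980 and 150 kb in 2CLCs. Cyp2r1 lay in narrower ones, of 45 and 20 kb in mESCs and 45 and 70 kb in 2CLCs. For 2 of the 3 the call depended on the definition: with domains of at least 50 kb only, Cyp2r1 was inside in 1 set, and when at least 50% of the gene body had to be covered, Cyp7b1 was inside in 2. In the unnamed set Cyp7a1 and Cyp7b1 were inside and Cyp2r1 was outside.

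In 3 subfamilies a single copy lies far from an array of its kin. Cyp2c23, an arachidonic acid epoxygenase of the kidney that lies apart from the Cyp2c array, was outside in all 4 sorted sets, and Cyp3a13, apart from the Cyp3a array, was too. Cyp4f18, the neutrophil leukotriene hydroxylase apart from the Cyp4f array, was inside in both dTAG sets.

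Between DMSO and dTAG, 85 of the 99 genes kept their placement in both cell states. In mESCs, 4 of 61 starts left domains, Cyp4x1, Cyp4b1, Cyp11b1 and Cyp4f40, beside 22.7% of all protein-coding starts that were inside. In 2CLCs, 3 of 60 left, Cyp2b13, Cyp11b1 and the ethanol-oxidising liver enzyme Cyp2e1, beside 18.3% of all. Cyp11b1 was the only one to leave in both states, which did not hold when domains were joined over gaps of 10 kb or less (inside in all 4 sets) or when at least 50% of the gene body had to be covered (inside in 3). In mESCs, 5 of 38 starts entered domains, Cyp2u1, Cyp2t4, Cyp4f18, Cyp2d10 and Cyp4f15, beside 8.14% of all starts that were outside. In 2CLCs, 7 of 39 entered, Cyp2u1, Cyp2t4, Cyp4f18, Cyp2d10, Cyp2d9, Cyp20a1 and Cyp21a1, beside 9.80%. The RefSeq start of Cyp2d9 lies 18940 bases from the one used, and there it was inside in 2CLC DMSO and outside in 2CLC dTAG. Domains covered 35.1% of the Cyp2d9 gene body in 2CLC DMSO and 22.2% in 2CLC dTAG. With so few genes, shared domains and no replicate, these differences from the background were not tested.

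The 4 genes that entered in both states did so by different distances. With domains of at least 50 kb only, Cyp4f18 and Cyp2d10 were inside in 1 set and Cyp2t4 in 0, and with at least 50% of the gene body covered Cyp2u1 was inside in 1. Cyp2u1, a fatty acid hydroxylase, was 316 kb from the nearest domain in mESC DMSO and 336 kb in 2CLC DMSO, and lay in a domain of 50 kb in each dTAG set. Cyp4f18 was 227 kb and 768 kb away in DMSO, and lay in domains of 145 kb in mESC dTAG and 45 kb in 2CLC dTAG. Cyp2t4, at the end of its array, was 74.1 kb and 34.1 kb away and then lay in narrow domains of 25 and 30 kb. Cyp2d10 was 16.4 kb and 41.4 kb away and then lay in the array's domain of 390 kb in mESC dTAG and in a separate one of 40 kb in 2CLC dTAG. Cyp20a1, an orphan P450, entered in 2CLCs only, from 277 kb outside in DMSO to a domain of 25 kb.

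In a few changes the start lay close to a domain in the set where it was outside. Of the 19 changes counted by gene and cell state, 3 had the start within 5 kb of a domain in the set where it was outside. That distance is no larger than the step of the grid on which domains were called. Within 10 kb, the width averaged at each step, there were 5. The 3 within 5 kb were Cyp4b1 in mESCs and Cyp11b1 in both cell states. Where they were inside, in DMSO, these starts were not near a boundary. The nearest was 81.7 kb away for Cyp4b1 in mESCs and 32.0 kb away for Cyp11b1 in both cell states. Cyp21a1, the steroid 21-hydroxylase, was 12.6 kb outside in 2CLC DMSO, held by a domain of 95 kb in 2CLC dTAG, and 2.59 kb outside in mESC dTAG. Cyp2e1 was inside by 0.735 kb in mESC dTAG and 69.3 kb outside in 2CLC dTAG. Cyp4f15 entered in mESC dTAG, where its start was 3.66 kb inside, and was 1.34 kb outside in 2CLC dTAG.

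The cell states differed at few P450 starts. In DMSO, Cyp2d9 and Cyp4f40 were inside in mESCs and outside in 2CLCs, 2 of 61 beside 13.9% of all starts inside in mESCs. At its RefSeq start, Cyp2d9 was inside in DMSO in both cell states. Cyp2b10 was inside in 2CLCs only, 1 of 38 beside 5.13%. In dTAG, Cyp2b13, Cyp2e1 and Cyp4f15 were inside in mESCs only, 3 of 62 beside 14.1%. Inside in 2CLCs only were Cyp20a1, Cyp4x1, Cyp4b1, Cyp2b10 and Cyp21a1, 5 of 37 beside 8.16%. Cyp2b10 was the only gene inside in both 2CLC sets and in neither mESC set. Its domains measured 190 kb in DMSO and 30 kb in dTAG. In the mESC sets its start was 22.0 and 13.0 kb from a domain, but in mESC DMSO a domain covered 24.1% of its gene body. With any base of the body counted Cyp2b10 was inside in 3 sets, and with domains of at least 50 kb only in 1.

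Clustered and single P450 genes also lay in different sequence, which the definition of a cluster did not use. In 100 kb around the start, the median GC content was 41.8% for clustered and 44.3% for single genes, against 44.3% for all protein-coding genes. The median share of repeat-masked bases was 46.5% for clustered, 29.5% for single and 30.4% for all genes. The median number of other protein-coding starts within 500 kb was 19, 13 and 16, a count that for clustered genes includes their own copies. The Cyp1a/11a, Cyp11b, Cyp2d, Cyp4f and Cyp26c/26a clusters resembled single genes, with median GC of 44.7% to 47.1% and 24.1% to 33.5% masked bases. In the other clusters the medians were 38.8% to 42.8% GC and 44.6% to 57.8% masked bases. Over placements, the 54 genes inside in all 4 sets had a median GC of 41.0% and 50.8% masked bases, the 15 in some sets 44.7% and 36.4%, and the 30 in none 46.0% and 28.9%. Genes of an array share these windows, and the part of base composition and repeats in the placement was not tested.

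**Figure D4:**
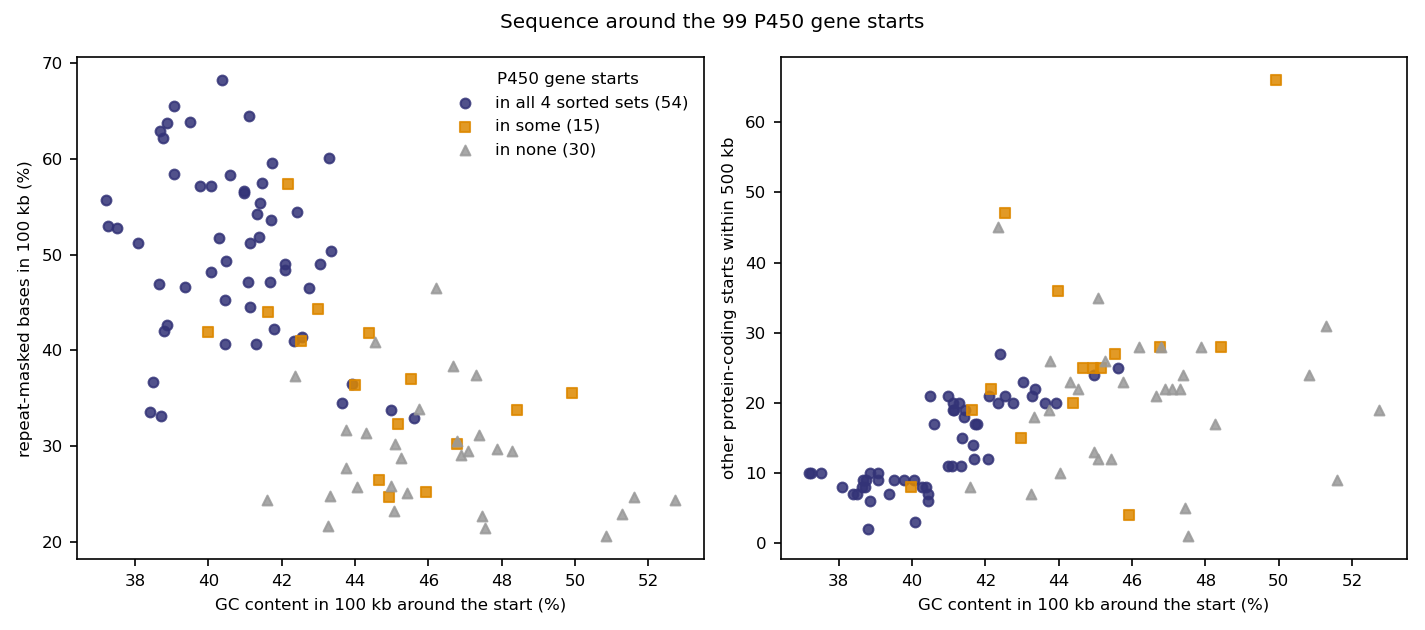
Each point is 1 of the 99 P450 gene starts, by GC content in the 100 kb around it (x axis, %) and, on the y axes, the share of repeat-masked bases in that window (left) or the number of other protein-coding starts within 500 kb (right). Genes inside in all 4 sorted sets have a median GC of 41.0% and 50.8% masked bases, and genes inside in none 46.0% and 28.9%.

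Promoters differed between clustered and single genes too. In the 300 bases around the GENCODE start, read from the genome for every gene, the median ratio of observed to expected CG pairs was 0.13 in clustered, 0.30 in single and 0.53 in all protein-coding genes. A ratio above 0.6 was found in 1 of 76 clustered promoters, that of Cyp26a1, in 7 of 23 single ones and in 44.7% of all. By placement, it was found in 1 of the 54 genes inside in all 4 sorted sets, Cyp2r1, and in 6 of the 30 in none. The median ratio was 0.12 in the former and 0.26 in the latter. TATAAA on either strand was present in 30 clustered promoters (39.5%), 3 single ones (13.0%) and 12.7% of all. Among the arrays it was present in 9 of 14 Cyp2c, 6 of 8 Cyp2d and 5 of 8 Cyp3a promoters and in 5 of 13 of the Cyp2s/2b/2a/2g/2f/2t array. It was in 2 of 10 Cyp4x/4a/4b and 1 of 8 Cyp2j promoters, both arrays that lay almost wholly in domains, and in none of the 8 of Cyp4f. These matches describe the letters and are not evidence of a working site.

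The arrays hold near-identical sequence, where reads cannot be assigned to a copy with certainty. The share of 50-base words that recur on the same chromosome, on either strand, was 27.9% in the Cyp3a array against 8.84% of chromosome 5, and 23.3% in the Cyp2c array against 5.57% of chromosome 19. It was 24.5% in the Cyp4x/4a/4b array and 12.5% in the Cyp2j array, against 9.86% of chromosome 4, and 20.9% in the Cyp2s/2b/2a/2g/2f/2t array against 14.0% of chromosome 7. It was 17.1% in Cyp2d against 6.53% of chromosome 15, and 6.33% in Cyp4f, below the 8.33% of chromosome 17. In the gene bodies of Cyp3a41a and Cyp3a41b it reached 81.2% and 82.4%, and in that of Cyp21a1, which entered in 2CLCs, 28.0%. Reads with several matches were assigned by the aligner, and the part of this in the placement was not tested.

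Genes that work with the P450s are given beside the 22.3% to 26.5% of all protein-coding starts that were inside in the sorted sets. Of the 5 electron donors Por, Cyb5a, Cyb5r3, Fdx1 and Fdxr, none was inside in 3 of the sorted sets, and Cyb5a alone in 2CLC dTAG. Of 14 receptors and partners that regulate P450 genes, the retinoic acid receptor Rarb was inside in all sets but mESC dTAG, Arnt in both dTAG sets, and the bile acid receptor Nr1h4 in mESC DMSO. The xenobiotic receptors Ahr, Nr1i2 and Nr1i3 were outside in all. Of 6 retinoid enzymes and binders, Aldh1a1 alone was inside, in all 4 sets. Of 3 P450 genes whose symbols fall outside the rule, Cyp51, which acts in cholesterol synthesis, was inside in all 4 sets, and Tbxas1 and Ptgis, of thromboxane and prostacyclin synthesis, in none.

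Other families of drug metabolism ranged from above to below that share of all genes. Ugt2 genes, which encode liver glucuronosyltransferases, were inside in 10 of 10 in each DMSO set, 9 in mESC dTAG and 8 in 2CLC dTAG. Sulfotransferase (Sult) genes were inside in 15 or 16 of 21 in every set, and all 15 inside in the DMSO sets were clustered ones. Glutathione transferase (Gst) genes, 19 of 23 of them clustered by the same distance, had 0 starts inside in DMSO and 1 in dTAG in mESCs, and 1 and 5 in 2CLCs. Of the 7 flavin monooxygenase (Fmo) genes, 6 were inside in DMSO and 4 in dTAG in mESCs, and 3 and 2 in 2CLCs. The 9 Ugt1a genes overlap and share all but their first exon, and 4 were inside in DMSO and 1 in dTAG in mESCs, and 2 and 5 in 2CLCs.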

How the data were processed

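H3K9me2 ULI-NChIP libraries were aligned to mm10 by the authors, and the processing notes name STAR 2.7.10, Picard 2.26.0, SAMtools 1.14, bedtools 2.30.0, deepTools 3.5.1 and R 4.1.2. The authors averaged coverage in 10 kb windows on a 5 kb grid and took the log2 ratio over input. They then extended bins above a high percentile to a low one. The deposited files hold the resulting positions and no count, ratio or p-value. Pooling of replicates and whether percentiles were set per list were not stated. Domains were used as deposited, on the GRCm38.p6 assembly, and none ran past a chromosome end.

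Gene starts were taken from GENCODE M21 with Python 3.11.15, numpy 2.4.6 and scipy 1.17.1. A start is inside where its base lies in a domain. Counts were set beside all protein-coding genes and no test was run, since each condition is a single list. Promoters shown came from the RefSeq table, which holds 76 of the 99 genes. Placement and clustering were tested on simulated data. Members and lists were chosen with earlier results of these data known. Genes named were all clusters, genes that moved between DMSO and dTAG, single genes inside any sorted set, and genes of steroid, retinoic acid, bile acid, vitamin D and aryl hydrocarbon pathways. Others named for their place in an array or subfamily, or as examples, were chosen after their values were seen. Alternatives changed the cluster gap and size, gene placement, domain width and joining, and the genes and clusters used.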

Additional observations from a re-analysis of the deposited data

Results flagged for a closer look

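In the unnamed set, 5 P450 genes lay in a domain although they were in no domain of the sorted sets. They were Cyp4v3, Cyp19a1 and Cyp1b1, which are single genes, and Cyp2d22 and Cyp2d11 at the end of the Cyp2d array. The domains that held them measured 210 kb at Cyp4v3, 175 kb at Cyp19a1, 120 kb at Cyp1b1 and 235 kb at both Cyp2d genes. These genes drew attention because the list is outside every comparison above. It covers more of the genome than any sorted list, 1650 Mb against 1220 to 1413 Mb, and 30.0% of all protein-coding starts. The labels do not tie it to a cell state or treatment, so the difference was not tested.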

How the results depend on the processing

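Of 256 recomputed shares and counts, 248 stayed close to the value given above. Close means within its Wilson interval for a share and within 1.5 times for a count. Many of them could not move, so the total overstates what was tried. Leaving out a cluster cannot change a single share, no P450 gene lies on X, and cluster gap or size cannot change counts of starts that left or entered. For single and changed genes under 4 other placements or domain definitions, the number of sorted sets with the gene inside differed in 26 of 132 values, among them those of Cyp11b1, Cyp4b1, Cyp4x1, Cyp20a1, Cyp2e1, Cyp2r1 and Cyp7b1. The clustered share exceeded the single share in 88 of 88 pairs of values, by 38.9 to 67.6 percentage points. Averaged over clusters rather than genes, the clustered share was 59.4% in depleted mESCs, and in 2CLCs 62.7% with DMSO and 60.2% with dTAG, because small clusters then weigh as much as arrays. Those averages are not among the 88 pairs. Beside them the single shares were 26.1%, 17.4% and 30.4%, and in both dTAG sets the gap was below 38.9 points. Starts that left in mESCs fell to 2 with domains joined over 10 kb and to 2 without the Cyp4x/4a/4b array. Starts that left in 2CLCs rose to 7 when at least 50% of the gene body had to be covered and to 6 with domains of at least 50 kb only, where those that entered in 2CLCs fell to 3. Without any 1 cluster, an alternative chosen after seeing the data, the clustered share ran from 67.7% to 82.4%. No paired analysis was possible because each list holds a whole condition and no sample. The lists give no depth, so a start a few kb from a boundary cannot be placed with more certainty than the 5 kb grid and its 10 kb windows.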
